A study of Mus musculus with 12 samples.

Results

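The TCF/LEF family of transcription factors comprises 4 mouse genes, Tcf7 (which encodes TCF-1), Lef1, Tcf7l1 and Tcf7l2. The members were chosen by name: every row of the deposited expression table that the platform annotation gives to 1 of these symbols was taken. Of the 4 genes, 3 had a row, with 1 row each (transcript clusters 10496091 for Lef1, 10545458 for Tcf7l1 and 10464084 for Tcf7l2), out of 19938 genes measured in all. No row was assigned to Tcf7 by the annotation used, so the deleted gene is not analysed here, and its signal gave no check of the genotypes. All 3 measured members were bright enough to be among the 14953 genes tested. Below, a gene is called where its adjusted p was under 0.05, and changes are differences of mean log2 signal.

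TCF/LEF factors bind DNA through a single HMG box that recognises a short motif with the core CTTTGA. Without Wnt signals they recruit Groucho/TLE co-repressors, and stabilised beta-catenin displaces these and recruits co-activators in their place. In the thymus TCF-1 and LEF-1 drive T lineage commitment and the passage to the double-positive stage, and Lef1 is itself a textbook Wnt target. TCF7L1 acts mainly as a repressor in stem cells and epithelia, and TCF7L2 is best known from the gut epithelium. The old symbols Tcf3 and Tcf4, once used for Tcf7l1 and Tcf7l2, now belong to E-protein genes of another family, and their rows were not used.

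RNA came from 3 groups of samples of C57/BL6 mice. The first were T cell lymphoma cells from the thymus of TCF-1 knockout mice aged 12 to 40 weeks (6 arrays). The second were DN3 thymocytes, early T cell precursors with neither CD4 nor CD8, of TCF-1 knockout mice aged 8 to 12 weeks (3 arrays), and the last were DN3 thymocytes of wild-type mice of that age (3 arrays). All cells were sorted straight into lysis reagent, between 800 pg and 50 ng of RNA was amplified, and Affymetrix Mouse Gene 1.0 ST arrays were used. The labels do not give the knockout allele, and age and transformation cannot be told apart between lymphomas and DN3 cells. Every array is labelled a biological replicate, but the relation of the mice is not stated, so each p-value reflects only how these samples vary, which may be technical.

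Median log2 signal per array ranged over 5.30 to 5.39, and 12 arrays set the precision. Signals of 34 unnamed rows set 4 arrays (replicate 1 of both DN3 groups and lymphomas 1 and 2) apart from the other 8, a split called the array batch below although the labels name none. Xist was low on replicate 3 of the knockout DN3 cells and on lymphomas 1, 2 and 6, so sex was not balanced. Of 11 measured DN3 markers 1 rose and none fell in knockout DN3 cells, where 0.568% of all genes were called higher and 1.42% lower, and Il2ra, Thy1, Cd3e and Notch1 were not called. The rise was that of Dtx1, a call lost when any 1 array was left out other than knockout replicate 3 (limma adjusted p up to 0.222). With same-numbered arrays as pairs Rag2 was also called lower (-0.50, limma adjusted p = 0.0139), where 6.35% of all genes were called lower. In the lymphomas 1 of the 11 rose and 3 fell against wild-type cells (Rag1, Rag2 and Cd3g), where 2.96% of all genes were called higher and 2.86% lower. Without wild-type replicate 3 none of these falls was called (limma adjusted p up to 0.168 over the arrays left out, for Cd3g without wild-type replicate 1). Cd4 stood at 4.98 ± 0.14 in the lymphomas (SD, n = 6), 5.12 ± 0.03 in knockout and 4.99 ± 0.24 in wild-type DN3 cells (SD, n = 3 each).

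The sequences below are the 250 bases before annotated starts of Lef1 and Tcf7l2, the members whose levels differed between the groups, from RefSeq (GRCm38.p6), written 5′ to 3′ on the strand of the gene. Capitals mark the letters CTTTGA or, on the other strand, TCAAAG, which do not overlap each other.
Lef1, first start (chr3:131110047-131110296, + strand): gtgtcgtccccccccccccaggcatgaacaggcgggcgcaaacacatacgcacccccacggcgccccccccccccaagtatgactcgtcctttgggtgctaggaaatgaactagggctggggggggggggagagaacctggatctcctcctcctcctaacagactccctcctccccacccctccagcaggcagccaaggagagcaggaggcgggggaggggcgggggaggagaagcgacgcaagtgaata
Lef1, last start (chr3:131156044-131156293, + strand): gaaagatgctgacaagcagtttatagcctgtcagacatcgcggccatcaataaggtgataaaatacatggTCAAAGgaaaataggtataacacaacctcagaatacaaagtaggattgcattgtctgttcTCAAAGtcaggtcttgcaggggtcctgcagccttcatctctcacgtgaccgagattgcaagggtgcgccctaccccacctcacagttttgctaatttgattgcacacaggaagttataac
Tcf7l2, first start (chr19:55741560-55741809, + strand): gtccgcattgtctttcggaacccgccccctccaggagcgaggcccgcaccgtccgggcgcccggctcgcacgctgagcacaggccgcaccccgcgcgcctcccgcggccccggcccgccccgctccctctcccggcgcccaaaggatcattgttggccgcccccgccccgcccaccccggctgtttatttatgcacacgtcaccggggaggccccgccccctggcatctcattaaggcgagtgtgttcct

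Of the 4 annotated Lef1 starts only the last, 46.0 kb downstream of the first, had the letters in its window, with 2 matches that begin 180 and 120 bases before the start. Neither Tcf7l2 window, nor those of Tcf7l1 (1 start) and Tcf7 (2 starts), had a match. Over all 32851 windows of that length 13.8% had at least 1 match and 1.37% had 2 or more. The array row of Lef1 does not tell its starts apart, so the values below belong to the gene as a whole.

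Lef1 was higher without TCF-1, in DN3 thymocytes and in lymphomas alike. Its log2 signals were 9.99, 10.20, 10.40, 10.36, 10.31 and 10.21 on lymphomas 1 to 6, against 9.64, 9.84 and 9.99 in knockout DN3 cells and 8.67, 8.83 and 8.93 in wild-type DN3 cells. Every array without TCF-1 lay above every wild-type array, and each lymphoma lay above each knockout DN3 array, though lymphoma 1 and knockout replicate 3 both round to 9.99. Such a separation upwards was seen for 10.4% of all genes between knockout and wild-type DN3 cells, 5.28% between lymphomas and wild-type cells and 7.34% between lymphomas and knockout DN3 cells. Sorted thymocytes and tumours are bulk samples, so more expressing cells and more RNA per cell cannot be told apart.

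In the comparison of knockout with wild-type DN3 cells, Lef1 averaged 9.82 ± 0.17 against 8.81 ± 0.13 (SD, n = 3 each). The rise of 1.01 (SE 0.13, 95% interval 0.72 to 1.30, limma adjusted p = 0.0043) corresponds to a 2.02-fold higher signal. Of the 3 tested members Lef1 alone rose, against 0.568% of all genes tested that were called higher, and Tcf7l2 fell, against 1.42% called lower. In all 298 genes were called, and 1380 with same-numbered arrays as pairs, where Lef1 (adjusted p = 0.000107) and Tcf7l2 (0.0035) were called and Tcf7l1 was not. With these pairs as a block 2.88% of all genes were called higher and 6.35% lower, and calls that it added in a gene list are given with that list. By the size of its t statistic Lef1 ranked 33 among 14953 genes. The median change of all genes was 0.03. The difference was 0.97 in the smaller and 1.03 in the larger array batch.

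Against wild-type DN3 cells the lymphomas had a Lef1 signal of 10.25 ± 0.15 (SD, n = 6) in place of 8.81 ± 0.13 (SD, n = 3). This rise of 1.43 (SE 0.10, 95% interval 1.21 to 1.66, limma adjusted p = 5.29e-06), or 2.70-fold, stands against 2.96% of genes called higher in that comparison. It was 1.43 in the smaller and 1.44 in the larger batch. Both comparisons use the same wild-type arrays.

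Set against knockout DN3 cells instead, lymphomas had 0.42 more Lef1 (SE 0.11, 95% interval 0.18 to 0.67, limma adjusted p = 0.0449), where 4.5% of genes were called higher. That call was lost when any of lymphomas 2 to 6 or any knockout DN3 replicate was left out, with adjusted p up to 0.165 (without knockout replicate 1, where the difference was 0.33). Within the smaller and the larger batch the difference was 0.45 and 0.41. The 3 lymphomas with high Xist had Lef1 signals from 10.31 to 10.40, and the 3 with low Xist from 9.99 to 10.21. The share of all genes that this split separates was not counted, so it is not read as a trait of Lef1. The 2 lymphomas of the smaller batch are among those with low Xist, and neither factor's part in this split was tested.

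**Figure D1:**
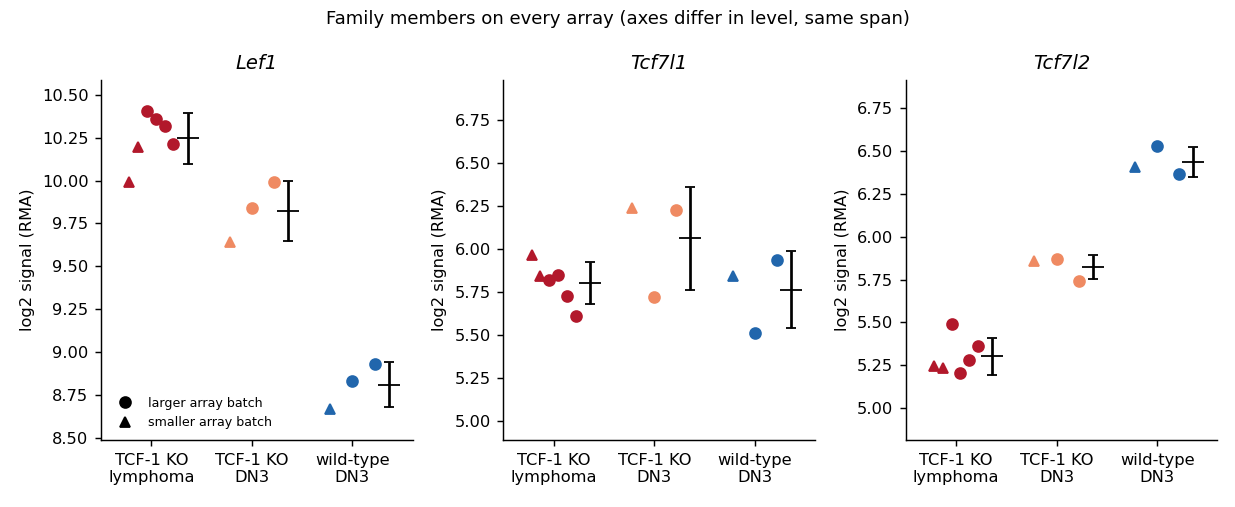
Log2 signal (RMA, vertical axis) of Lef1, Tcf7l1 and Tcf7l2 on each array, by group; triangles are arrays of the smaller batch, circles of the larger, and bars give the mean and SD. Lef1 lies between 9.99 and 10.40 in lymphomas and between 8.67 and 8.93 in wild-type DN3 cells, Tcf7l2 takes the reverse order, and the groups overlap for Tcf7l1.

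Tcf7l2 moved the other way. Its log2 signals were 5.24, 5.23, 5.49, 5.21, 5.28 and 5.36 on lymphomas 1 to 6, 5.86, 5.87 and 5.74 in knockout DN3 cells and 6.40, 6.53 and 6.36 in wild-type DN3 cells. The 3 groups did not overlap in any pair: lymphomas were lowest and wild-type cells highest. Downwards, 11.6% of all genes were so separated between knockout and wild-type DN3 cells, 5.04% between lymphomas and wild-type cells and 6.23% between lymphomas and knockout DN3 cells. The filter on low values stood at log2 4.78, and how far the signals lay above background was not tested.

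In knockout DN3 cells Tcf7l2 averaged 5.82 ± 0.07, against 6.43 ± 0.09 in wild-type cells (SD, n = 3 each). It fell by 0.61 on the log2 scale (SE 0.11, limma adjusted p = 0.0211). Wild-type signal was 1.53-fold that of the knockout. The difference was -0.55 in the smaller and -0.64 in the larger batch. The call was lost when any 1 of the wild-type replicates or knockout replicate 3 was left out (adjusted p up to 0.137, without wild-type replicate 2, with a difference of -0.56).

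In lymphomas Tcf7l2 averaged 5.30 ± 0.11 (SD, n = 6). It fell by 1.13 relative to wild-type DN3 cells (SE 0.09, 95% interval -1.32 to -0.94, limma adjusted p = 8.36e-06), where 2.86% of genes were called lower, and ranked 46 by t statistic. The batches gave -1.17 and -1.11. Relative to knockout DN3 cells it fell by 0.52 (SE 0.09, limma adjusted p = 0.00583), where 2.12% of genes were called lower, and this call held whichever array was left out. It was lost in the larger batch alone (limma adjusted p = 0.0757) and with replicate number as a block (0.0569). That block keeps only lymphomas 1 to 3, which have same-numbered DN3 arrays.

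Tcf7l1 was not called in any comparison. It had log2 signals of 5.97, 5.85, 5.82, 5.85, 5.73 and 5.61 on lymphomas 1 to 6, 6.24, 5.72 and 6.23 in knockout DN3 cells and 5.85, 5.51 and 5.94 in wild-type DN3 cells. The groups overlapped in every pair, and knockout replicate 2 lay below the other knockout replicates. The difference between knockout and wild-type DN3 cells was 0.30 (95% interval -0.07 to 0.67, limma adjusted p = 0.403). That between lymphomas and wild-type cells was 0.04 (95% interval -0.20 to 0.28, adjusted p = 0.954). Lymphomas differed from knockout DN3 cells by -0.26 (95% interval -0.54 to 0.02, adjusted p = 0.228), and this difference was called only without knockout replicate 2 (-0.43, adjusted p = 0.0352). In the smaller and the larger batch the differences were 0.40 and 0.25 for knockout and 0.06 and 0.03 for lymphoma against wild-type cells, and -0.34 and -0.22 for lymphoma against knockout DN3 cells. The intervals leave room for a rise of up to 0.67 in knockout DN3 cells.

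**Figure D2:**
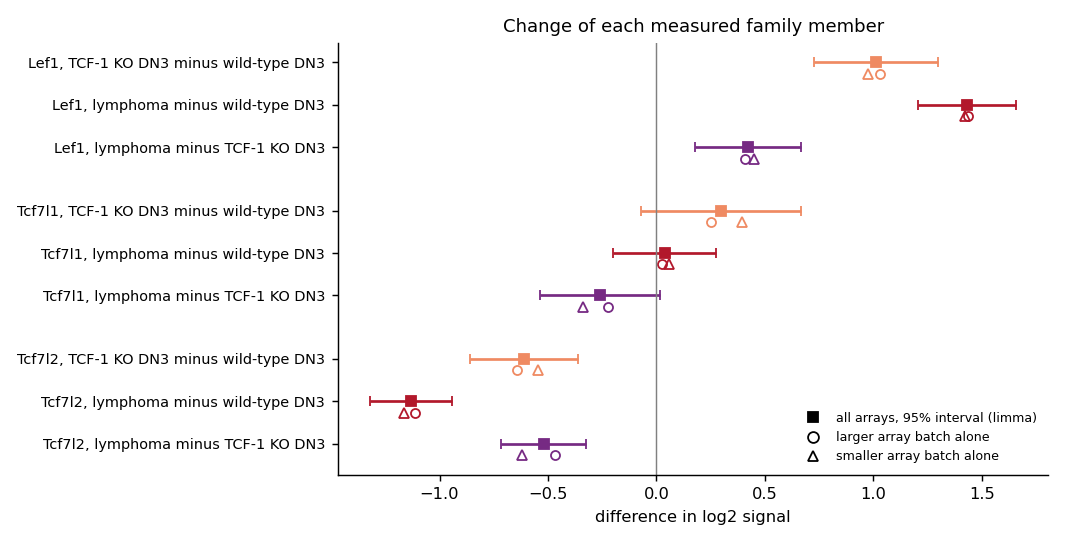
Difference in log2 signal (horizontal axis) of each measured family member in the 3 comparisons; squares with bars are limma estimates with 95% intervals, open circles and triangles the differences within the larger and the smaller array batch. The intervals of Lef1 and Tcf7l2 exclude 0 in all 3 comparisons, and those of Tcf7l1 include it.

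**Figure D3:**
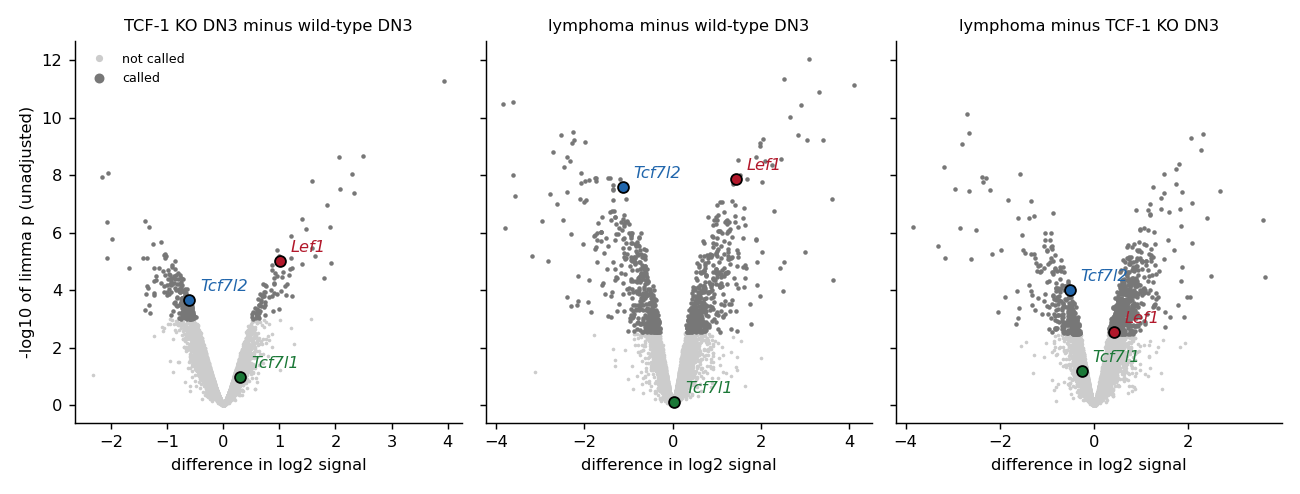
Difference in log2 signal (horizontal axis) against -log10 of the unadjusted limma p (vertical axis) for all 14953 genes tested, dark grey where called at an adjusted p under 0.05, with the family members marked. Lef1 lies on the right and Tcf7l2 on the left in all 3 panels, with Tcf7l1 near the base.

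Across the 12 arrays the levels of Lef1 and Tcf7l2 had a Pearson correlation of -0.94, and the deviations from the group means one of 0.10, so the inverse relation is one between groups. With Tcf7l1 the levels correlated at 0.07 (Lef1) and -0.07 (Tcf7l2). These values describe arrays that share groups and batches.

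The genes whose levels ran most like Lef1 over the 12 arrays were Adam19 (r = 0.97), a membrane metalloprotease, Ptpn14 (0.97), a tyrosine phosphatase, and Agfg1 (0.97). They were followed by Ikzf3 (0.97), the lymphoid zinc-finger factor Aiolos, and the chemokine receptor gene Ccr4 (0.96). All 5 rose in knockout against wild-type DN3 cells, by 0.76 (Ccr4) to 2.29 (Ptpn14), and in lymphomas by 1.49 (Ccr4) to 3.31 (Ikzf3). They were picked by their levels over these same arrays, so this direction follows from the choice and is no separate result. Of all genes 0.568% and 2.96% were called higher in these comparisons. The Ccr4 rise in knockout DN3 cells was not called without wild-type replicates 1 or 2 (adjusted p up to 0.0752).

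Most like Tcf7l2 was Smarca4 (r = 0.99), the ATPase BRG1 of SWI/SNF chromatin remodellers, which is also a co-activator of beta-catenin. Then came the phospholipid flippase gene Atp8b4 (0.99), the receptor gene Calcrl (0.98), the kinase gene Sgk3 (0.98) and Scin (0.97), which encodes an actin-severing protein. All 5 fell in knockout DN3 cells, by 0.72 (Smarca4) to 1.98 (Atp8b4), and in lymphomas by 1.20 (Smarca4) to 3.62 (Atp8b4), relative to wild-type cells. Here too the direction follows from the choice by levels over the same arrays. Of all genes 1.42% and 2.86% were called lower in these comparisons. The lymphoma means of Sgk3 (4.45) and Scin (4.62) lay under the filter of log2 4.78. In knockout DN3 cells the calls of Smarca4, Calcrl and Scin were lost without wild-type replicate 2, and those of Calcrl and Scin also without knockout replicate 3 (adjusted p up to 0.0775).

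Most like Tcf7l1 were Flnc (r = 0.97), Carmil3 (0.95), Nova2 (0.94), Cxcr1 (0.94) and Dvl1 (0.93). None of these 5 was called in any comparison, but with the replicate block Nova2 was called higher in knockout DN3 cells (0.43, limma adjusted p = 0.0366). The 3 nearest tested neighbours on either side along the chromosome, 6 for each of the 4 family genes, held 1 called gene. Against wild-type cells 1.99% (knockout) and 5.82% (lymphoma) of all genes were called, and 6.62% between lymphomas and knockout DN3 cells. The called gene was Tmsb10, near Tcf7l1, a thymosin gene named after its values were seen. It rose by 0.95 in knockout DN3 cells and by 1.23 in lymphomas against wild-type cells. Tmsb10 had 2 rows, and its other row rose by 0.98 and 1.16. The 6 neighbours of Lef1, of Tcf7l2 and of Tcf7 were not called in any comparison.

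Deviations from the group means leave out the differences between groups. The closest genes by this measure were picked as the highest correlations among all genes tested, and how high chance values reach was not tested. They were Jag2 (r = 0.98) and Defb46 (0.98) for Lef1 and Creb3l1 (0.93) and Ube2q2 (0.93) for Tcf7l2. For Tcf7l1 they were Zfr2 (0.96) and Flnc (0.95), with Carmil3 (0.93) also among the first 5. Flnc and Carmil3 were near Tcf7l1 by levels too. Tcf7l1 was not called in any comparison and the arrays are the same, so this is no separate result.

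Beta-catenin (Ctnnb1), the partner that turns TCF/LEF factors into activators, was not called. Of 12 co-activator genes tested, none rose and 2 fell in knockout DN3 cells, where 1.99% of all genes were called in either direction. Smarca4 was at 8.70, 8.66 and 8.72 in knockout DN3 cells, against 9.41, 9.47 and 9.34 in wild-type cells. It fell by 0.72 (SE 0.11, limma adjusted p = 0.0085), a call lost without wild-type replicate 2 (adjusted p = 0.0705). With the replicate block 4 of the 12 fell, Ep300 (-0.47, limma adjusted p = 0.0186) and Cdc73 (-0.43, 0.0254) in addition. In that fit 6.35% of all genes were called lower.

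The histone methyltransferase gene Kmt2a fell by 0.60 in knockout DN3 cells (limma adjusted p = 0.0236), with the call lost without any 1 wild-type replicate or without knockout replicate 3 (up to 0.137). In lymphomas Smarca4 lay between 8.09 and 8.39 and fell by 1.20 relative to wild-type cells (SE 0.09, limma adjusted p = 5.41e-06). It was the only called co-activator there, where 5.82% of all genes were called. It also fell relative to knockout DN3 cells, by 0.49 (limma adjusted p = 0.00829), where 6.62% of all genes were called. The limma adjusted p was 0.0858 in the larger batch alone and 0.059 with the replicate block, which keeps only lymphomas 1 to 3. The median change of the 12 co-activators was -0.32 in knockout DN3 cells and -0.10 in lymphomas against wild-type cells, where the medians of all genes were 0.03 and -0.01.

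Among 14 co-repressor and inhibitor genes the called member was Tle3, a Groucho-type co-repressor that TCF/LEF factors bind directly. Its signals were 7.06 to 7.28 in lymphomas (median 7.19), 7.17, 6.98 and 6.92 in knockout DN3 cells, and 7.49, 7.64 and 7.64 in wild-type DN3 cells. It fell by 0.57 in knockout DN3 cells (limma adjusted p = 0.0363) and by 0.41 in lymphomas (adjusted p = 0.00954). The call in knockout DN3 cells was lost when any 1 array was left out other than knockout replicate 1 (adjusted p up to 0.188), and that in lymphomas without wild-type replicates 2 or 3 (up to 0.0583). For the list, 1 of 14 fell in each comparison with wild-type cells, where 1.42% (knockout) and 2.86% (lymphoma) of all genes were called lower. With the replicate block Chd8 (-0.37, limma adjusted p = 0.0413) was also called lower and Tle1 (0.39, 0.0371) higher in knockout DN3 cells. Without the block the other 13 did not pass against wild-type cells in either comparison, and none of the 14 passed between lymphomas and knockout DN3 cells. The medians of the list were -0.04 and 0.00 against wild-type cells.

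None of 12 genes for kinases, ligases and scaffold proteins that act on TCF/LEF factors or beta-catenin was called in knockout DN3 cells, with or without the replicate block. Of all genes 1.99% were called without the block and 9.23% with it. Nlk, a kinase that phosphorylates TCF/LEF factors, rose by 0.51 in lymphomas against wild-type cells (limma adjusted p = 0.014), with the call lost without wild-type replicates 2 or 3 (up to 0.0959). Csnk1a1, the kinase that primes beta-catenin for breakdown, rose by 0.53 in lymphomas against knockout DN3 cells (limma adjusted p = 0.0206), with the call lost without knockout replicates 1 or 3 (up to 0.102). The other 11 did not pass in each of these comparisons, where 2.96% and 4.5% of all genes were called higher.

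Of 17 tested textbook targets of TCF/LEF factors and beta-catenin, Lef1 itself left aside, 1 rose in knockout DN3 cells, where 0.568% of all genes were called higher. In lymphomas 3 rose against wild-type cells, where 2.96% of all genes did, and none fell in either comparison. Axin2, the feedback inhibitor that is the most used readout of this pathway, was at 6.88, 7.21, 6.91, 6.93, 7.18 and 7.11 on lymphomas 1 to 6, 6.26, 5.71 and 5.96 in knockout DN3 cells and 5.94, 5.55 and 5.57 in wild-type DN3 cells. Lymphomas lay above both DN3 groups, which overlapped each other. Of all genes 5.28% were so separated between lymphomas and wild-type cells and 7.34% between lymphomas and knockout DN3 cells.

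Axin2 rose by 1.35 in lymphomas against wild-type cells (SE 0.11, limma adjusted p = 2.07e-05) and by 1.06 against knockout DN3 cells (SE 0.13, adjusted p = 0.000619), and both calls held whichever array was left out. In knockout DN3 cells it was 0.29 above wild-type cells without being called (limma adjusted p = 0.401).

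Trib2, a pseudokinase gene, rose by 1.27 in lymphomas against wild-type cells (limma adjusted p = 0.000216). In knockout DN3 cells its difference of 0.69 was called with the replicate block (adjusted p = 0.03) and not without (0.139). The cyclin D1 gene Ccnd1 rose by 1.14 (limma adjusted p = 0.0191), a call lost without any 1 wild-type replicate (up to 0.0995). Sp5, a zinc-finger gene induced by Wnt signals, was highest in knockout DN3 cells, at 5.60, 5.37 and 5.59, against 4.99, 4.78 and 4.78 in wild-type DN3 cells. It rose by 0.67 (limma adjusted p = 0.0213), a call lost without wild-type replicates 2 or 3 or knockout replicate 3 (up to 0.131). In lymphomas Sp5 fell to 4.90 to 5.16, by 0.51 relative to knockout DN3 cells (limma adjusted p = 0.00833, and 0.0502 without knockout replicate 3). Of the 14 targets not called in lymphomas against wild-type cells, 8 had differences above 0 and 6 below. Nkd1 (0.48, limma adjusted p = 0.0959) and Rnf43 (0.35) had the highest of these differences, and Myc (-0.16) had the lowest. The groups did not overlap for Nkd1, a separation upwards that 5.28% of all genes showed. The median change of the list was 0.16 in knockout DN3 cells and 0.13 in lymphomas.

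**Figure D4:**
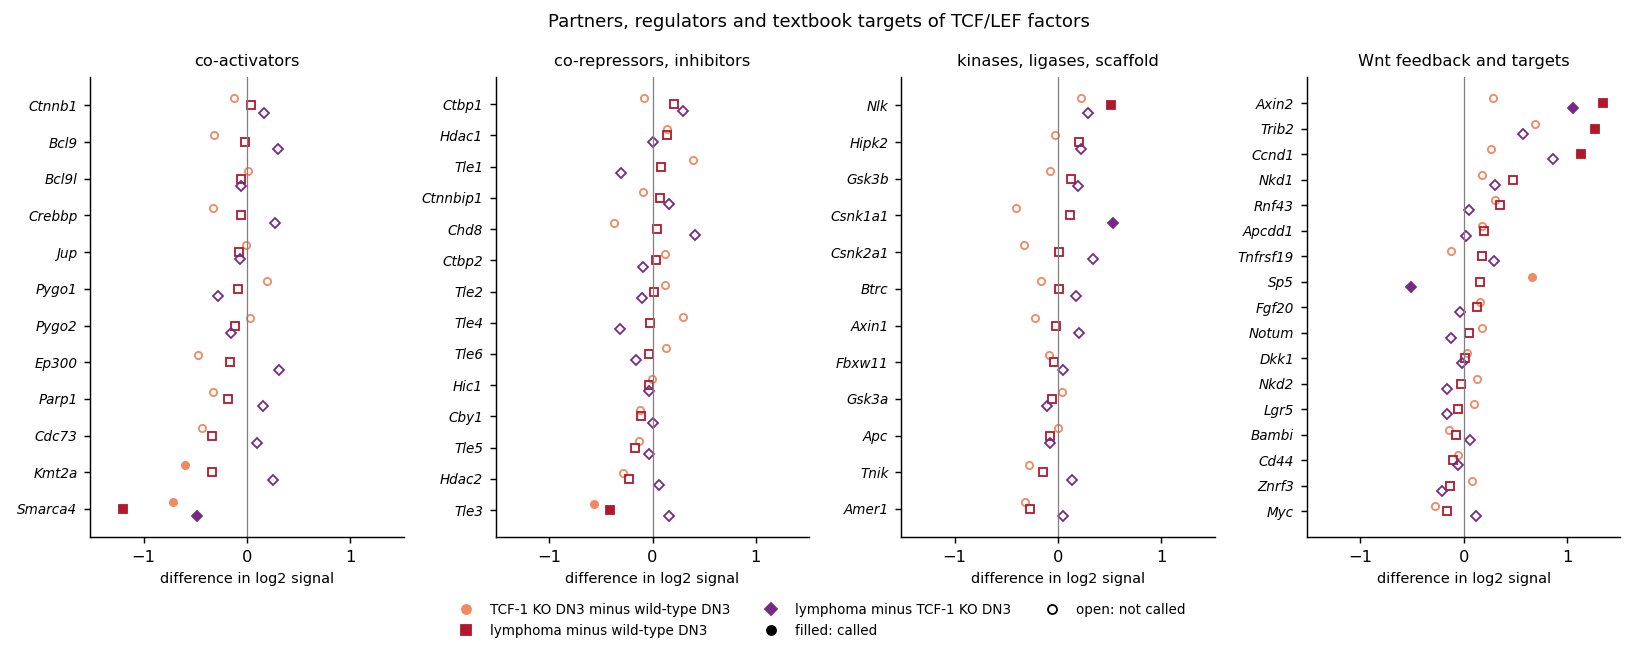
Difference in log2 signal (horizontal axis) of co-activators, co-repressors, modifying enzymes and textbook targets of TCF/LEF factors, ordered by the lymphoma minus wild-type value; symbols give the 3 comparisons and are filled where the adjusted p was under 0.05. Smarca4 at -0.72 and -1.20 and Axin2 at 1.35 stand out, and Ctnnb1 is open in all comparisons.

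Early T cell genes often studied downstream of TCF-1 were listed as 19, of which 17 were tested. In knockout DN3 cells 1 rose (Dtx1, a Notch target, by 0.63) and 1 fell (the interleukin 7 receptor gene Il7r, by 1.01), and 15 did not pass, where 0.568% of all genes were called higher and 1.42% lower. With the replicate block 3 rose and 3 fell, where 2.88% of all genes were called higher and 6.35% lower. Id2 (0.82, limma adjusted p = 0.0122) and Id3 (0.42, 0.034) were the added rises. Hes1 (-0.60, 0.00909) and Rag2 (-0.50, 0.0139) were the added falls. The calls of Dtx1 and Il7r made without the block were lost without wild-type replicates 2 or 3. That of Dtx1 was also lost without wild-type replicate 1 or knockout replicates 1 or 2 (limma adjusted p up to 0.222). The Il7r call was also lost in 1 fit to all 12 arrays (0.311).

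In lymphomas against wild-type cells 3 of the 17 rose, 4 fell and 10 did not pass, where 2.96% of all genes were called higher and 2.86% lower. The rises were those of Id2, an inhibitor of E proteins (2.44), Dtx1 (0.92) and Gata3, a factor of T lineage commitment (0.75). Il7r fell by 2.30, and Cd3g, a chain of the T cell receptor complex, fell by 0.35. Rag1 fell by 1.92 and Rag2, which acts with it in receptor gene rearrangement, fell by 1.39. Each of these falls was not called without wild-type replicate 3, those of Il7r, Rag2 and Cd3g also not without wild-type replicate 2, and those of Rag2 and Cd3g not without wild-type replicate 1. That of Cd3g was lost without lymphomas 3, 4 or 5 as well (up to 0.168). The calls of Id2 and Dtx1 held whichever array was left out, and that of Gata3 did not hold without wild-type replicate 1 (limma adjusted p = 0.0662). Against knockout DN3 cells 3 of the 17 rose in lymphomas, Id2 (1.62), Gata3 (0.89) and Cd3e (0.59), where 4.5% of all genes were called higher. There Rag1 fell by 1.62 and Ptcra, the pre-T cell receptor alpha chain gene, fell by 0.64, where 2.12% were called lower. Of these only Gata3 was called whichever array was left out (limma adjusted p up to 0.176 for the others, for Ptcra without knockout replicate 1), and it was lost in the larger batch alone (0.0635). Against wild-type cells the medians of the list were -0.05 and -0.11.

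HMG-box genes outside the TCF/LEF group were counted in the same way. Of 18 tested SOX, TOX and similar genes, none rose and 1 fell in knockout DN3 cells (Tox4, by 0.60, limma adjusted p = 0.0433), where 0.568% of all genes were called higher and 1.42% lower. With the replicate block Hbp1 (-0.66, adjusted p = 0.00554) was also called lower. The Tox4 call was lost when any 1 array was left out other than knockout replicate 2 (limma adjusted p up to 0.194). In lymphomas against wild-type cells Tox, a factor of CD4 T cell development, rose by 0.79 (SE 0.11, limma adjusted p = 0.000667). Its signals were 9.32 to 9.56 in lymphomas, against 8.45, 8.91 and 8.53 in wild-type DN3 cells. These groups did not overlap, as for 5.28% of all genes upwards. Tox3 fell by 0.63 (limma adjusted p = 0.000843), and 16 did not pass, where 2.96% of all genes were called higher and 2.86% lower.

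Sox4 and Sox13, the SOX genes best known from thymocytes, were not called in any comparison. Between lymphomas and knockout DN3 cells Hbp1 (0.68) and Tox4 (0.60) rose and Tox3 fell by 0.47, with calls lost without knockout replicate 3 in all of them, without knockout replicate 1 for Hbp1 and Tox4, and without lymphoma 6 for Hbp1 (up to 0.139). In that comparison 4.5% of all genes were called higher and 2.12% lower. Of 11 architectural HMG-box genes, which bind DNA without a fixed motif, 1 was called, in lymphomas against wild-type cells: Wdhd1, by 0.41 (limma adjusted p = 0.0473, and up to 0.199 where any array but lymphomas 1 and 2 was left out). The median change was 0.07 for the SOX and TOX list and 0.00 for the architectural list in knockout DN3 cells, and 0.01 and 0.04 in lymphomas against wild-type cells.

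**Figure D5:**
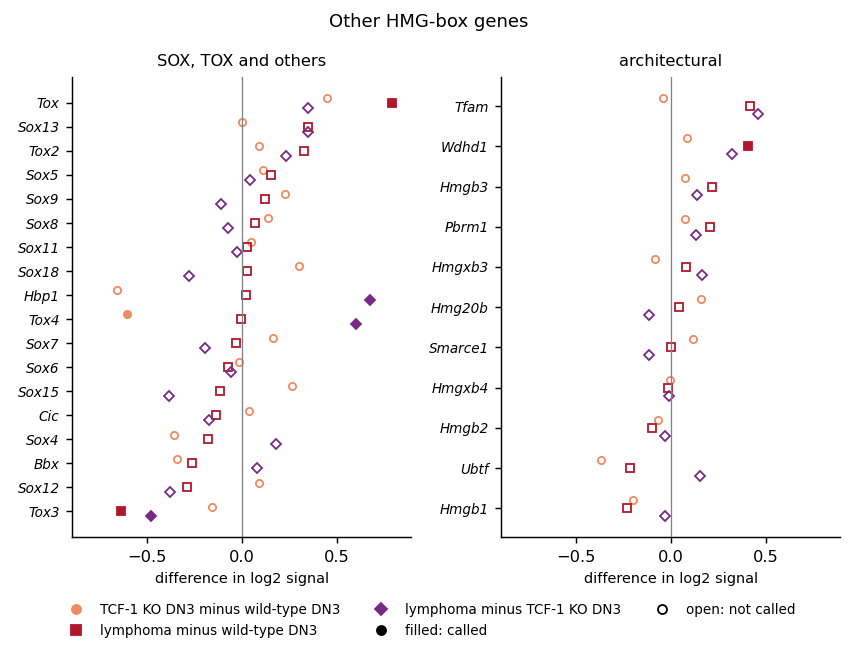
Difference in log2 signal (horizontal axis) of HMG-box genes outside the TCF/LEF family, ordered by the lymphoma minus wild-type value; symbols give the 3 comparisons and are filled where the adjusted p was under 0.05. Tox (0.79) is the highest and Tox3 (-0.63) the lowest of the lymphoma minus wild-type values, and most symbols are open.

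Of 9 measured markers of later thymocytes, some were called in the direction of Lef1. Against wild-type cells 3 rose in knockout DN3 cells (Cd8b1 by 1.40, Cd8a by 1.21 and Cd5 by 0.63) and 3 in lymphomas against wild-type cells (Itm2a by 2.02, Cd8b1 by 1.43 and Cd5 by 0.98), and none fell, where 0.568% and 2.96% of all genes were called higher. With the replicate block 5 rose in knockout DN3 cells, Klf2 (0.45, limma adjusted p = 0.0191) and S1pr1 (0.56, 0.0166) in addition, where 2.88% of all genes were called higher. In 1 fit to all 12 arrays the Cd8a call in knockout DN3 cells was lost (limma adjusted p = 0.129). The Cd5 call in knockout DN3 cells was lost when any 1 array was left out other than knockout replicate 2 (limma adjusted p up to 0.17). Their log2 signals summed to 56.6 to 61.7 in lymphomas, 54.8 to 56.4 in knockout DN3 cells and 51.2 to 53.0 in wild-type DN3 cells. Against knockout DN3 cells Itm2a rose by 1.86 in lymphomas, where 4.5% of all genes were called higher. There 8 of the 9 did not pass and the list median was -0.01. Their part in the rise of Lef1 was not tested.

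Of 4 tested B cell markers 2 fell in lymphomas against wild-type cells, where 2.86% of all genes were called lower, Cd79b by 0.95 and Vpreb1 by 1.46, with the Vpreb1 call lost without wild-type replicate 3 (limma adjusted p = 0.0651) while Cd79a, Ebf1 and Ms4a1 were under the filter. The 7 measured B cell markers summed to 33.1 to 33.9 in lymphomas, 35.3 to 35.7 in knockout DN3 cells and 34.9 to 36.7 in wild-type DN3 cells. Of 8 stromal markers Epcam, an epithelial adhesion gene, fell by 1.05 in lymphomas against wild-type cells and the other 7 were not called, with 4 of the 8 above 0 and a list median of -0.03. The 8 summed to 43.6 to 45.0, 45.3 to 46.7 and 45.2 to 45.9 in the same order of groups. Against knockout DN3 cells Cd79b fell by 0.82 in lymphomas, Vpreb1 fell by 0.50, Epcam fell by 1.06, Foxn1 fell by 0.36 and Pecam1 rose by 0.64. In that comparison 2.12% of all genes were called lower and 4.5% higher. The calls of Vpreb1, Foxn1 and Pecam1 there were lost without knockout replicates 1 or 3 and without some of the lymphomas (limma adjusted p up to 0.164). No B cell or stromal marker was called in knockout DN3 cells, but with the replicate block Pecam1 was called lower (-0.52, limma adjusted p = 0.0115) and Krt8 higher (0.45, 0.0295). Their part in the fall of Tcf7l2 was not tested.

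Of 4 tested NK cell markers Gzma rose by 0.68 in knockout DN3 cells. In lymphomas Il2rb rose by 0.93 and Gzma by 0.66. Both Gzma calls were lost without any 1 wild-type replicate (limma adjusted p up to 0.123), and that of Il2rb was lost in the larger batch alone (0.07). Of all genes 0.568% and 2.96% were called higher in these comparisons. The defining NK genes Ncr1, Klrb1c, Klrd1 and Eomes were under the filter. The 8 NK cell markers summed to 43.5 to 45.6 in lymphomas, 43.9 to 44.5 in knockout DN3 cells and 42.3 in each wild-type array. No myeloid (5 tested) or erythroid (5 tested) marker was called in any comparison.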

How the data were processed

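The deposited values are log2 signals for transcript clusters, which the authors computed by RMA (background subtraction, quantile normalisation, probe summary) using Partek, according to the submitters' processing notes. Changes are therefore relative to other genes. Software versions and log base were not given in the sources used here, and base 2 was taken from the range of the values.

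Of 35556 rows, 21789 had 1 symbol in the platform annotation, 1621 several and 12146 none here, and 21698 matched RefSeq (GRCm38.p6, also the source of the sequences) by gene identifier. The brightest row stood for a gene, and genes below the 25th percentile of mean signal (log2 4.78) were dropped. Each comparison was fitted on its own groups with limma 3.58.1 (R 4.3.3), two-sided and tested on simulated data. Benjamini-Hochberg adjustment covered the 14953 genes left, and "called" means an adjusted p under 0.05. The exact permutation test planned for members under the filter was not needed.

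Members, gene lists and naming rule were chosen with earlier results of these data known. The rule named all family rows, up to 6 called members per list and comparison by lowest p (the lowest p where none was called), and the 5 genes most alike by Pearson correlation, without predicted loci. List members named as not called or as called under an alternative, and neighbours, were picked after their values were seen. Same-numbered knockout and wild-type DN3 arrays deviated together (correlations 0.51, 0.42 and 0.25), so the numbers were taken as pairs in 1 alternative, the replicate block. The main fits did not use these pairs, and values given without mention of pairs or block come from fits without them. Pair 1 lies in the smaller batch. In comparisons with lymphomas the block kept only lymphomas 1 to 3 and the 3 DN3 arrays. Same-numbered correlations there were 0.44, -0.22 and 0.15 with wild-type and 0.38, -0.26 and 0.11 with knockout DN3 cells. That pairing was not borne out by them. That batch is the split by at least 1 log2 unit that most unnamed rows showed (34, and 27 for the next split). Alternatives changed the normalisation, filter, choice of row, variance model, arrays fitted, batch, Xist level and replicate block, and left out each array.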

Additional observations from a re-analysis of the deposited data

Results flagged for a closer look

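Of the genes named above or standing most like a family member (59 checked), 5 had a lymphoma far from the other lymphomas, by the gap to its nearest neighbour relative to the range of the 6; chance flags about 1 in 20. None was a family member. Atp8b4, a gene like Tcf7l2 in pattern, stood at 6.35 in lymphoma 3, with the nearest other at 5.21. Il7r stood at 8.26 in the same lymphoma, with the nearest other at 6.54. In lymphoma 6, Carmil3 stood at 5.42 (nearest 5.65), Dvl1 at 5.45 (nearest 5.53) and Epcam at 4.59 (nearest 4.84).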

How the results depend on the processing

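No direction of a called or newly called result turned under any alternative. The rise of Lef1 against wild-type cells stayed called in all 18 alternatives for knockout DN3 cells (0.93 to 1.10, limma adjusted p up to 0.0292) and all 21 for lymphomas (1.36 to 1.55), as did the fall of Tcf7l2 in lymphomas (-1.17 to -1.08). In knockout DN3 cells the fall of Tcf7l2 was not called in the larger batch alone (-0.64) or with Xist level as a term (-0.57), and ran from -0.65 to -0.56 with 1 array left out. The replicate block, which paired these arrays, changed no call of a family member against wild-type cells. Between lymphomas and knockout DN3 cells, Lef1 was not called with repeated quantile normalisation (0.38), in the larger batch (0.41), with Xist level (0.43) or with the replicate block (0.37), and ran from 0.33 to 0.50 with 1 array left out. Tcf7l2 there was not called in the larger batch (-0.47) or with the replicate block (-0.50). Tcf7l1 ran from -0.43 to -0.17 with 1 array left out. The number of genes called in knockout against wild-type DN3 cells was 298, against 754 with the batch as a term, 144 in the larger batch, 126 with Xist level, 1380 with the replicate block, and 57 (without wild-type replicate 2) to 443 with 1 array left out. For lymphomas against wild-type cells it was 871, against 549 in the larger batch and 560 to 872 with 1 array left out. For lymphomas against knockout DN3 cells it was 990, against 1702 with the batch as a term, 325 in the larger batch and 431 to 1361 with 1 array left out. Fewer arrays enter where a batch or array is left out, and where the replicate block is used for lymphomas, of which it keeps only 1 to 3. For knockout against wild-type DN3 cells, Xist level as a term gave the same values as leaving out knockout replicate 3. That is the only array with low Xist in that comparison, so these are not separate alternatives. The cause of the other moves was not tested. Of 81 calls of other named genes 39 held in every alternative, while 37 were lost when 1 of the arrays was left out. Losses numbered 29 in the larger batch alone, 12 with the replicate block and 9 with Xist level as a term, and can overlap. The number of arrays and, for Tcf7l2, low signals limit these results.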
